A study of Homo sapiens with 6 samples.

Results

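The genes described here are NFE2L2, which encodes the transcription factor NRF2, its inhibitor gene KEAP1, the competing repressor gene BACH1 and 7 genes of antioxidant and detoxifying proteins (NQO1, OSGIN1, SOD1, SOD2, CAT, GSTP1 and MGST1). They were chosen by symbol, and each of the 10 symbols matched a single Ensembl ID among the 62703 of the deposited table. The RNA came from MNNG/HOS Cl #5, a human osteosarcoma line labelled wild type, so all values describe a single clone. The 3D group holds 3 libraries of cells seeded in a demineralised bone matrix scaffold and the 2D group 3 libraries of cells grown flat. Both were taken at day 7, in high-glucose medium with L-glutamine, serum and antibiotics. The comparison asks how scaffold culture differed from flat culture, and the labels do not say whether the libraries of a group came from separate cultures, so p-values measure the spread between libraries, which may be technical.

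NRF2 is held low in unstressed cells because KEAP1, a redox-sensitive adaptor, brings it to the CUL3 ubiquitin ligase for degradation. When reactive cysteines of KEAP1 are modified, NRF2 accumulates, pairs with small MAF proteins and switches on genes with an antioxidant response element, while BACH1 occupies the same elements and represses some of them. Much of this control acts on protein stability, which RNA levels do not show.

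KEAP1, NQO1 and MGST1 were higher in 3D, and the other tested genes of the group did not pass. The genes were measured in FPKM, a level scaled by gene length and library size, and tested with limma on log2(FPKM + 1), with a Benjamini-Hochberg adjusted p under 0.05 over 12843 genes as the threshold. Of 9 tested members 3 were higher, or 1 in 3, against 33.3% of all tested genes, so the share is that of the background. None was lower, against 18.1% of all tested genes, with a limma count of 0 lower also at an unadjusted p under 0.05 and a count of 0 with voom on reads. The median log2 change of the 9 was 0.03, and that of all tested genes was 0.14. In bulk RNA, fewer cells with a transcript and less of it per cell cannot be told apart.

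**Figure D1:**
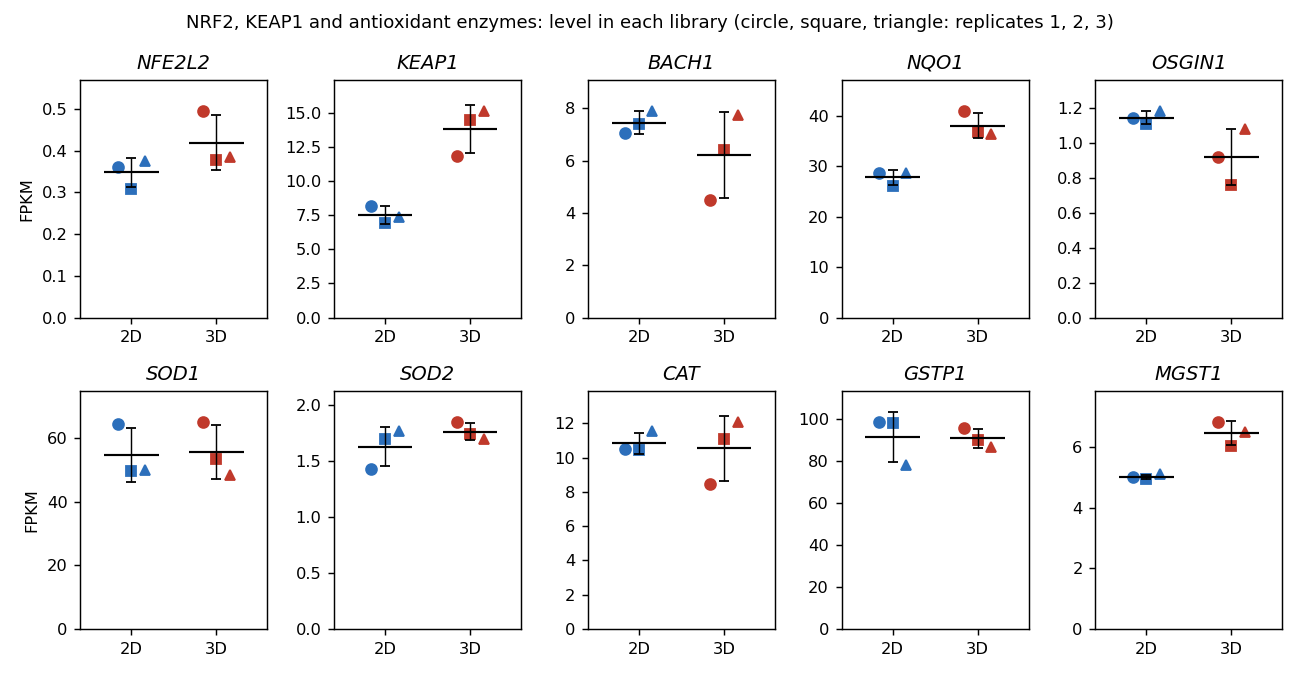
FPKM (vertical axes from 0) of the 10 genes in the 3 libraries of flat culture (2D, blue) and the 3 of scaffold culture (3D, red), with a bar for the mean and whiskers for 1 SD. KEAP1, NQO1 and MGST1 part the groups by a clear gap, while SOD1, SOD2, CAT, GSTP1 and BACH1 overlap.

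Promoter windows of RefSeq (GRCh38.p14, 250 bases before to 50 after a start) show where the letters of the antioxidant response element lie beside these genes. The core was searched on both strands as TGACNNNGC, which 13.3% of all 35116 windows hold, and 9 of the 10 members matched the table, with 18 windows. KEAP1, GSTP1 and MGST1 had a match, in 1 window each, and NQO1 had none. Genes differed in the number of windows searched, and both KEAP1 and MGST1 also had a window without a match. The windows below were picked because KEAP1 rose with 2 matches, GCLM, a target described further on, rose with 1, GSTP1 did not pass with 1 and NQO1 rose with 0. Capitals mark the matches, and every sequence reads 5′ to 3′ on the strand of its gene.
KEAP1, chr19:10502722-10503021, minus strand: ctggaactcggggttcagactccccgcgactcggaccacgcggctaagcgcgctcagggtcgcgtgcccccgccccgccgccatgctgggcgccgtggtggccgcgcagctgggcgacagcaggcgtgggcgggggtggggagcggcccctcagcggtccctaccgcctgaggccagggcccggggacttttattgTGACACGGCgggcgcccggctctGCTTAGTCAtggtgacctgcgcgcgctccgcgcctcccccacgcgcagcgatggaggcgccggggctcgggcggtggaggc
GCLM, chr1:93909381-93909680, minus strand: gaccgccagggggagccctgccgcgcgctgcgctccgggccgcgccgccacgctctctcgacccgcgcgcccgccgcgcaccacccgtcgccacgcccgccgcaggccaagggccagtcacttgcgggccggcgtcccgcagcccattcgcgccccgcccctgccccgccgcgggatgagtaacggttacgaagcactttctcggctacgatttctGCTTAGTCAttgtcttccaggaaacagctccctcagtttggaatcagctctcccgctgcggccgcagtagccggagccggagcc
GSTP1, chr11:67583562-67583861, plus strand: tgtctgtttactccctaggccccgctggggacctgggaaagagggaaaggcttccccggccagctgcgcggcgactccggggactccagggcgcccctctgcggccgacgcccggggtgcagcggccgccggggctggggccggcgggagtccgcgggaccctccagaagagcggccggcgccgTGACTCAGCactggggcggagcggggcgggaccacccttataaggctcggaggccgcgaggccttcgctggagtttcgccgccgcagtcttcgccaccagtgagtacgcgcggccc
NQO1, chr16:69726511-69726810, minus strand: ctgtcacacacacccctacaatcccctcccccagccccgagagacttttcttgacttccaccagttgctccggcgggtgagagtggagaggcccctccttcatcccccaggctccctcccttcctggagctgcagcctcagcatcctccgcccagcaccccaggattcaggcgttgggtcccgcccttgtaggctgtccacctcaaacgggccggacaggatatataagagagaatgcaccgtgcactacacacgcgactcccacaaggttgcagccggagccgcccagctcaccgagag
The match of GSTP1 on its own strand reads TGACTCAGC. The matches of KEAP1 read TGACACGGC on the strand of the gene and TGACTAAGC on the other, and the match of GCLM reads TGACTAAGC, also on the other strand. The looser form TGANNNNGC was found in 11 of the 18 windows of the members and in 41.8% of all windows. A match is only a run of letters in this window, and a window without one says nothing of elements elsewhere.

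NFE2L2 (chromosome 2, 177227595 to 177392697, GRCh38, as all positions here), the gene of NRF2, was listed at 0.496, 0.378 and 0.384 FPKM in 3D replicates 1 to 3 and at 0.361, 0.309 and 0.376 in 2D replicates 1 to 3. These values lay under the minimum of 1 FPKM, so the gene was not tested in the main comparison. The reads behind them were not few: 548, 430 and 521 in 3D and 422, 349 and 443 in 2D, as worked out from the FPKM values. The low FPKM goes with the length by which the table divides, since the shortest gene length that gave whole reads in all 6 libraries was 82559 bases. The exons of NFE2L2 in GENCODE 29 cover 5979 bases, a ratio of 13.8, where the median ratio of 12523 tested genes was 1.5 and only 2.16% of them had a ratio of 5 or more. The FPKM of NFE2L2 is therefore no measure of its rank among genes in this table.

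Between groups the length cancels. In RPM, reads scaled to library size but not to length, NFE2L2 stood at 34.7 ± 5.52 in 3D and 28.9 ± 2.92 in 2D (SD, n = 3 each). Every 3D library lay above every 2D library, by a margin of 31.3 against 31.1 RPM at the nearest. 3D replicate 1 was the high one, at 41.1 RPM. Of all tested genes, 39.0% were parted in this direction on FPKM. The narrow margin holds for scaling by total reads. Median-ratio factors were 1.068 to 1.076 in 3D and 0.912 to 0.978 in 2D. With them the log2 difference of NFE2L2 on FPKM was 0.02 in place of 0.07. An exact 2-sided permutation test gave p = 0.1, the smallest that 3 libraries against 3 allow. With voom on the reads of genes with at least 10 reads in at least 3 libraries, a filter chosen after seeing the data, the log2 change was 0.26 (adjusted p = 0.188). The span of NFE2L2 overlaps 11 other annotated genes, and how reads shared between genes were counted is not given in the sources used here. AGPS, which overlaps it on the other strand, stood at 1.76, 1.88 and 2.13 FPKM in 3D and 0.551, 0.658 and 0.801 in 2D, and the part of such reads in the NFE2L2 values was not tested. Its closest profiles, by root mean square distance of centred log2(FPKM + 1) over the 6 libraries, were MARK3, COPS2 and IK, at 0.02, 0.022 and 0.025 against a median of 0.247 over 11697 genes. On this scale a gene under 1 FPKM varies little, and none of the 3 passed the test.

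KEAP1 (chromosome 19, 10486120 to 10503741, minus strand), the adaptor that marks NRF2 for degradation, changed most of the tested members. It stood at 11.9, 14.5 and 15.2 FPKM in 3D and at 8.21, 6.96 and 7.34 in 2D. The lowest 3D library was above the highest 2D library, as for 39.0% of all tested genes. The means were 13.8 ± 1.75 and 7.51 ± 0.641 FPKM (SD, n = 3 each), a ratio of 1.84. Its log2 change was 0.80 (SE 0.12, 95% interval 0.52 to 1.08, limma adjusted p = 0.00165), and 0.64 with libraries scaled by median ratios. Its RNA rested on 1169 to 1834 reads in 3D and 702 to 855 in 2D. A sense intronic gene inside KEAP1, AC011461.1, also had its higher values in 3D, at 1.05, 1.42 and 1.53 FPKM in 3D and 0.198, 0.204 and 0.392 in 2D. These values rest on very few reads, 5, 7 and 9 in 3D and 1, 1 and 2 in 2D. The part of unspliced RNA in the KEAP1 values was not tested.

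BACH1 (chromosome 21, 29194071 to 29630751), the repressor that competes with NRF2 and is itself cleared when haem is abundant, did not pass. Its values were 4.49, 6.42 and 7.74 FPKM in 3D and 7.05, 7.41 and 7.91 in 2D. The groups overlapped, and the 3D libraries spread widely, with replicate 1 lowest. For BACH1 the log2 change was -0.25 (95% interval -0.65 to 0.15, limma adjusted p = 0.248), and -0.07 without 3D replicate 1. Its span overlaps 8 other annotated genes, of which the intronic pseudogene GAPDHP14 stood at 2.95 to 3.09 FPKM in 3D and 0.448 to 0.906 in 2D.

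NQO1 (chromosome 16, 69706996 to 69726951, minus strand), the quinone reductase often read as the marker of NRF2 activity, was higher in 3D. It stood at 41.0, 36.9 and 36.3 FPKM in 3D and at 28.6, 26.1 and 28.6 in 2D. All 3D libraries lay above all 2D libraries, with 3D replicate 1 the highest. The means were 38.0 ± 2.55 and 27.8 ± 1.46 FPKM (SD, n = 3 each), a ratio of 1.37 on 1853 to 3094 reads per library. The log2 change was 0.44 (SE 0.09, 95% interval 0.22 to 0.66, limma adjusted p = 0.00686). With median-ratio scaling, which moved the median of all tested genes from 0.14 to 0.01, it was 0.27 (adjusted p = 0.0417). The closest profiles to that of NQO1 were those of CDCA8, METTL13 and PRIMPOL, at distances of 0.025, 0.026 and 0.026 over the 6 libraries, against a median of 0.269 over 11696 genes. CDCA8, for instance, stood at 26.8, 23.9 and 23.6 FPKM in 3D and 19.2, 17.5 and 18.5 in 2D. PRIMPOL met the minimum of 1 FPKM only through its 3D libraries. It stood at 1.565, 1.322 and 1.307 FPKM in 3D and 0.884, 0.728 and 0.875 in 2D.

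OSGIN1 (chromosome 16, 83948282 to 83966332), an oxidative stress-induced growth inhibitor and also an NRF2 target, had its higher values in 2D. Its values were 0.920, 0.758 and 1.08 FPKM in 3D and 1.14, 1.11 and 1.19 in 2D. Every 2D library lay above every 3D library, as for 21.9% of all tested genes, but the difference did not pass (log2 change -0.17, 95% interval -0.39 to 0.06, limma adjusted p = 0.19). It was the member with the fewest reads, 79 to 134 per library.

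**Figure D2:**
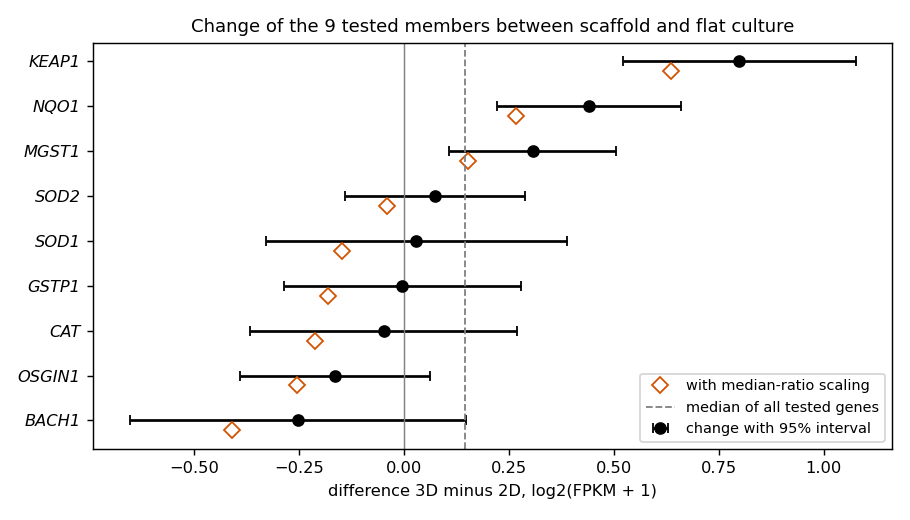
Difference between 3D and 2D on the log2(FPKM + 1) scale for the 9 tested genes, with 95% intervals (black) and the value after median-ratio scaling (orange diamonds). The dashed line is the median of all tested genes, 0.14, and KEAP1 at 0.80 and NQO1 at 0.44 have intervals wholly to its right.

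None of the 3 enzymes that dispose of superoxide and hydrogen peroxide passed the test. SOD1 (chromosome 21, 31659622 to 31668931), the copper and zinc superoxide dismutase of the cytosol, stood at 64.9, 53.4 and 48.4 FPKM in 3D and 64.2, 49.5 and 49.8 in 2D. In both groups replicate 1 was the highest and the groups overlapped. The log2 change was 0.03 (95% interval -0.33 to 0.39, limma adjusted p = 0.891), and it turned to -0.15 with median-ratio scaling and to -0.09 without 3D replicate 1.

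SOD2, the manganese superoxide dismutase of mitochondria, stood at 1.85, 1.74 and 1.70 FPKM in 3D and 1.43, 1.69 and 1.76 in 2D. The groups overlapped, and 2D replicate 1 was the low library. For SOD2 the log2 change was 0.07 (95% interval -0.14 to 0.29, limma adjusted p = 0.531), and -0.04 with median-ratio scaling. The ID of SOD2 in the table is not in GENCODE 29, so no span is given, and its worked-out length of 25818 bases turns 523 to 720 reads per library into these low FPKM values. As for NFE2L2, the level of SOD2 cannot be set beside that of SOD1.

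CAT (chromosome 11, 34438925 to 34472062), the catalase of peroxisomes, stood at 8.44, 11.1 and 12.1 FPKM in 3D and 10.5, 10.4 and 11.5 in 2D. Replicate 1 was the lowest of the 3D libraries and the lowest of all 6. For CAT the log2 change was -0.05 (95% interval -0.37 to 0.27, limma adjusted p = 0.791), and 0.09 without that library.

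The 2 glutathione transferases of the group differed from each other in outcome. GSTP1 (chromosome 11, 67583595 to 67586656), the cytosolic pi-class enzyme that joins glutathione to drugs and other electrophiles, had the most reads of the 10 genes, 5093 to 6504 per library. It stood at 95.7, 90.1 and 86.5 FPKM in 3D and 98.5, 98.0 and 77.9 in 2D, with the 2D libraries enclosing the 3D libraries. The log2 change was -0.00 (95% interval -0.29 to 0.28, limma adjusted p = 0.981), so differences within that interval were not resolved. It was 0.05 without 2D replicate 1 and -0.11 without 2D replicate 3.

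MGST1 (chromosome 12, 16347142 to 16609259), a membrane-bound glutathione transferase and peroxidase, stood at 6.82, 6.04 and 6.49 FPKM in 3D and 5.01, 4.96 and 5.09 in 2D. The groups did not overlap, and the 2D libraries lay close together. The means were 6.45 ± 0.388 and 5.02 ± 0.0701 FPKM (SD, n = 3 each), and the log2 change came to 0.31 (SE 0.085, 95% interval 0.11 to 0.51, limma adjusted p = 0.0202). With median-ratio scaling MGST1 did not pass (log2 change 0.15, adjusted p = 0.167). Nor did it pass when the third 3D library, the first 2D library or the second 2D library was left out (limma adjusted p = 0.054, 0.0515 and 0.0639). SUPT16HP1, a pseudogene inside its span on the other strand, stood at 3.45 to 3.98 FPKM in 3D and 0.925 to 1.83 in 2D, and its part in the MGST1 values was not tested.

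3D replicates 1 and 3 each held an extreme of their group for most of these genes. With 3 libraries in a group each is often an extreme, and the share over all tested genes was not counted. Within 3D, replicate 1 was the lowest library for KEAP1, BACH1 and CAT and the highest for NFE2L2, NQO1, SOD1, SOD2, GSTP1 and MGST1. Replicate 3 was the highest for KEAP1, BACH1, OSGIN1 and CAT and the lowest for NQO1, SOD1, SOD2 and GSTP1. Without 3D replicate 1 the log2 change of KEAP1 was 0.90, that of NQO1 0.39 and that of MGST1 0.27, and all 3 still passed (limma adjusted p = 0.00183, 0.0148 and 0.0465).

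**Figure D3:**
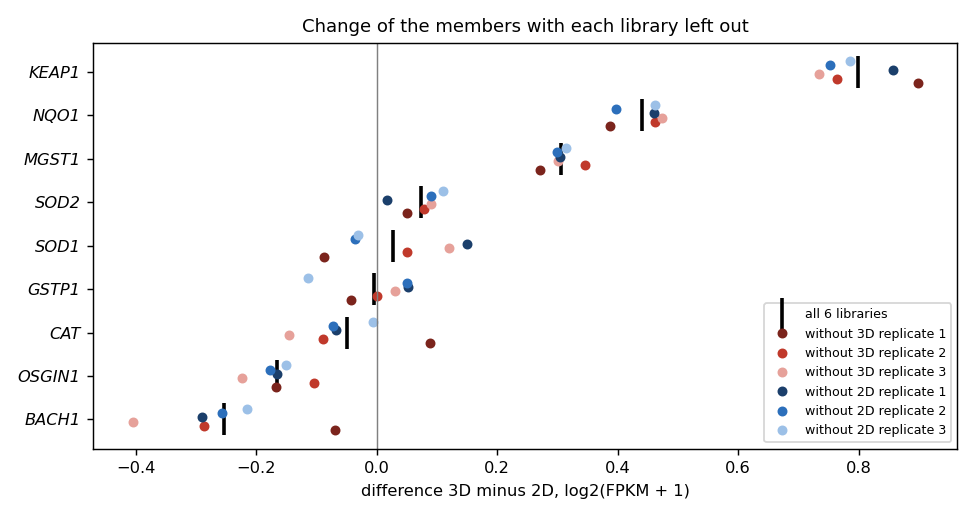
Difference between 3D and 2D on the log2(FPKM + 1) scale for the 9 tested genes with all 6 libraries (black bars) and with each library left out (dots). KEAP1 stays between 0.73 and 0.90 and NQO1 between 0.39 and 0.47, while SOD1, GSTP1 and CAT cross 0.

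The list on NRF2 control held 13 further genes, not only regulators of NRF2 but also NFE2L1, NFE2L3, BACH2 and the small MAF genes. Of these 13, 12 were tested, of which 4 were higher, 3 lower and 5 did not pass (median log2 change 0.03). The share higher, 1 in 3, is that of all tested genes (33.3% higher and 18.1% lower). CUL3, the scaffold of the ubiquitin ligase that KEAP1 serves, stood at 7.05, 6.94 and 7.46 FPKM in 3D and 4.70, 4.95 and 5.26 in 2D (log2 change 0.45, limma adjusted p = 0.00453). Its partner RBX1, the RING subunit, stood at 18.7, 16.5 and 13.5 against 16.8, 20.2 and 17.0 and did not pass. DPP3, a peptidase that binds KEAP1, rose from 6.72 ± 0.771 to 11.8 ± 1.78 FPKM (SD, n = 3 each, log2 change 0.72). BTRC, an adaptor of the other ligase that clears NRF2, and PGAM5, a mitochondrial phosphatase that binds KEAP1, were named after their values were seen and had log2 changes of 0.39 and 0.39. PGAM5 did not pass after median-ratio scaling (adjusted p = 0.176) or with no filter on low values (adjusted p = 0.0975), nor when 3D replicate 2, 3D replicate 3 or any single 2D library was left out (limma adjusted p = 0.126, 0.0904, 0.0589, 0.11 and 0.094). SQSTM1, the autophagy receptor p62 that sequesters KEAP1, was lower, at 25.3, 32.7 and 19.3 FPKM against 45.1, 35.5 and 34.5 (log2 change -0.58, limma adjusted p = 0.045). That call was lost on leaving out any library other than 3D replicate 2. The adjusted p was 0.0944 and 0.11 without 3D replicates 1 and 3 and 0.133, 0.0759 and 0.0632 without 2D replicates 1 to 3, and with no filter on low values it was 0.124.

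The small MAF proteins pair with either NRF2 or BACH1 on the element, and they include the genes with the largest changes of this list. MAFF stood at 0.815, 1.08 and 1.29 FPKM in 3D and 5.23, 4.53 and 4.41 in 2D, a ratio of means of 4.45 in favour of 2D. MAFK stood at 3.96, 5.40 and 5.04 in 3D and 15.4, 14.2 and 12.5 in 2D. Neither pair of groups overlapped, and the log2 changes were -1.48 and -1.38 (limma adjusted p = 0.000313 and 0.000407). MAFG, named after its values were seen, spread from 3.57 to 18.3 FPKM within 2D and did not pass (log2 change -0.32, limma adjusted p = 0.603). Its log2 change was -0.91 without 2D replicate 2 (limma adjusted p = 0.0187) and 0.13 without 2D replicate 3.

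Of 29 known NRF2 targets outside the group, 28 matched a single ID and 22 were tested, of which 11 were higher, 3 lower and 8 did not pass, beside 33.3% higher and 18.1% lower among all tested genes. The median log2 change was 0.26 against 0.14 for all tested genes. With median-ratio scaling 7 were higher and 4 lower, where 24.6% and 24.5% of all tested genes were. GCLM, the modifier subunit of the enzyme that starts glutathione synthesis, stood at 11.9, 11.0 and 12.0 FPKM in 3D and 4.88, 4.56 and 5.35 in 2D. The groups lay far apart. The ratio of means was 2.36, and on the log2 scale the change was 1.09 (limma adjusted p = 0.000336, SE 0.09). GCLC, the catalytic subunit of the same enzyme, was named after its values were seen and stood at 6.74 ± 0.656 in 3D and 8.15 ± 0.263 in 2D (SD, n = 3 each), without passing (limma adjusted p = 0.0669). GCLC did pass as lower with median-ratio scaling (adjusted p = 0.0112) and without 3D replicate 3 (limma adjusted p = 0.044). HMOX1, the haem oxygenase that BACH1 represses, stood at 1.33, 2.83 and 3.10 FPKM in 3D and 0.578, 0.478 and 0.601 in 2D (log2 change 1.10, limma adjusted p = 0.00474). It is among the 11 called higher, but it met the minimum of 1 FPKM only through its 3D libraries. Its test therefore depended on the values being high there. With no filter on low values the limma adjusted p of HMOX1 was 0.0231. PGD, an NADPH-producing enzyme of the pentose phosphate pathway, rose from 31.7 ± 0.729 to 67.0 ± 7.2 FPKM, and EPHX1, a microsomal epoxide hydrolase, from 2.90 ± 0.224 to 5.88 ± 0.499 (limma adjusted p = 0.000478 and 0.000819).

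SRXN1, which repairs overoxidised peroxiredoxins, was at 20.5, 17.0 and 17.7 FPKM in 3D and 13.4, 12.7 and 12.7 in 2D (log2 change 0.47, limma adjusted p = 0.00681). TXNRD1, thioredoxin reductase, did not pass, at 12.5, 12.5 and 13.7 FPKM against 7.53, 16.1 and 9.93, but did without 2D replicate 2 (log2 change 0.53, limma adjusted p = 0.0269). The cystine importer SLC7A11, named after its values were seen, was higher in 3D (log2 change 1.04, limma adjusted p = 0.00948). The targets that fell were FTL, TKT and BLVRB, the last pair named after their values were seen. FTL, the ferritin light chain, stood at 1059, 818 and 812 FPKM in 3D and 1871, 1741 and 1424 in 2D (log2 change -0.91, limma adjusted p = 0.00304). FTL has processed pseudogenes whose reads may be split from it in ways not stated. TKT, transketolase, and BLVRB, biliverdin reductase B, had log2 changes of -0.35 and -0.48.

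**Figure D4:**
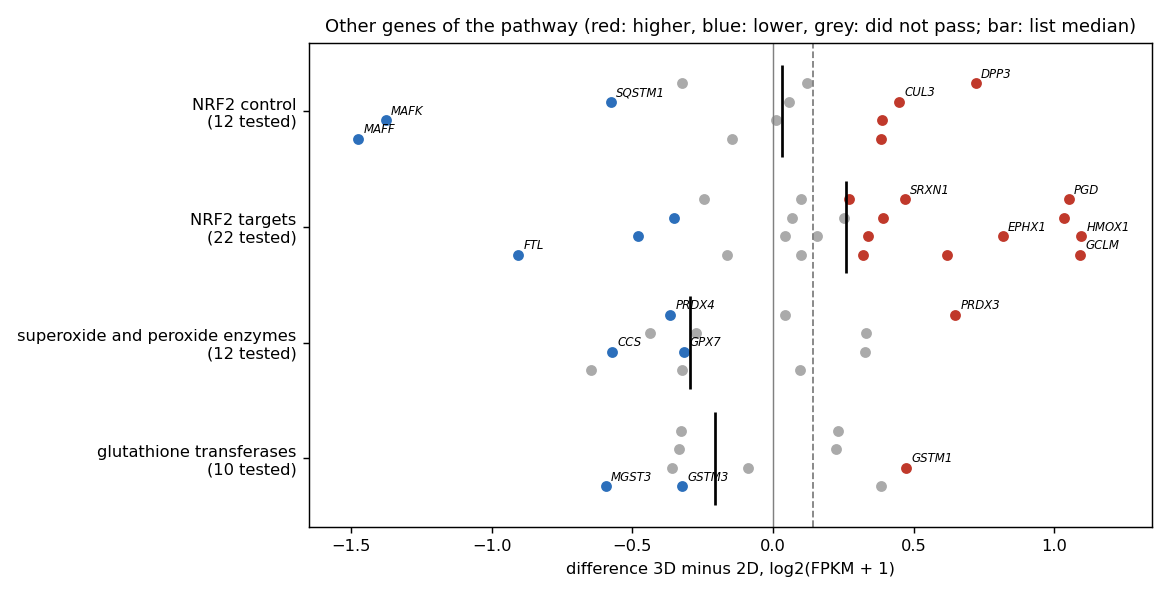
Difference between 3D and 2D on the log2(FPKM + 1) scale for tested genes of 4 lists, in red where higher, blue where lower and grey where the test was not passed. Black bars are list medians (0.03, 0.26, -0.30 and -0.21 from top to bottom) and the dashed line is the median of all tested genes, 0.14.

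Other enzymes of superoxide and peroxide disposal numbered 12 tested of 14, of which 1 was higher, 3 lower and 8 did not pass (median log2 change -0.30), beside 33.3% higher, 18.1% lower and a median of 0.14 among all tested genes. PRDX3, the mitochondrial peroxiredoxin, stood at 83.9, 73.4 and 69.8 FPKM in 3D and 48.6, 47.5 and 47.2 in 2D (log2 change 0.65, limma adjusted p = 0.0019). CCS, the chaperone that loads copper into SOD1, stood at 4.64, 4.80 and 4.17 in 3D and 7.69, 7.13 and 6.90 in 2D (log2 change -0.57, limma adjusted p = 0.00223), in contrast to the overlapping values of SOD1 itself. GPX7 and PRDX4, peroxidases of the endoplasmic reticulum, had log2 changes of -0.32 and -0.37. GPX7 did not pass when the second 3D library or 2D replicate 1 or 2 was left out (limma adjusted p = 0.0829, 0.0582 and 0.0825) and PRDX4 did not when 3D replicate 2 or 3 or the second 2D library was (limma adjusted p = 0.0546, 0.0556 and 0.0671). The abundant PRDX1, which is also in the list of targets, did not pass, at 187 ± 20.2 and 182 ± 14.6 FPKM (SD, n = 3 each), and PRDX5 did not either (log2 change -0.33, limma adjusted p = 0.0764), though it did without 3D replicate 1 (limma adjusted p = 0.0335) and with median-ratio scaling (adjusted p = 0.0195). The number lower was 5 without 3D replicate 1 and 1 without replicate 2 of either group, and the number higher was 2 without 2D replicate 2.

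The remaining glutathione transferases numbered 10 tested of 15 found, of which 1 was higher, 2 lower and 7 did not pass (median log2 change -0.21), beside the same 33.3%, 18.1% and 0.14 among all tested genes. MGST3, a relative of MGST1 in the same membrane family, went the other way from it, at 2.31, 2.46 and 2.75 FPKM in 3D and 4.53, 3.91 and 4.46 in 2D (log2 change -0.60, limma adjusted p = 0.00252). GSTM1 was higher and GSTM3 lower (log2 changes 0.47 and -0.32, limma adjusted p = 0.0249 and 0.036), and mu-class genes are similar in sequence, so reads may be split between them. GSTM1 did not pass when the first or second 3D library or 2D replicate 2 or 3 was left out (limma adjusted p = 0.0701, 0.0691, 0.0673 and 0.0635), nor after median-ratio scaling (adjusted p = 0.093) or with no filter (adjusted p = 0.069). The GSTM3 call was lost on leaving out any library other than 3D replicate 1 (limma adjusted p = 0.0772 and 0.0989 without 3D replicates 2 and 3, and 0.085, 0.061 and 0.087 without 2D replicates 1 to 3). It was also lost with no filter on low values (limma adjusted p = 0.0716). GSTM4 and GSTO1 did not pass (log2 changes 0.23 and -0.33, limma adjusted p = 0.0517 and 0.0696), though GSTO1 did without 2D replicate 3 (limma adjusted p = 0.0174) and with median-ratio scaling (adjusted p = 0.0228). GSTM4 passed as higher with voom on reads (adjusted p = 0.0308), with voom filtered on reads (adjusted p = 0.0399) and, at the very threshold, with a pseudocount of 0.1. None was higher by limma (0) when the first or second 3D library or the second 2D library was left out. The number lower was 1 when 3D replicate 2 or 3 or 2D replicate 1 or 2 was left out, and 3 without 2D replicate 3.

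The libraries held 13334220 to 16363570 reads in 3D and 13652958 to 14241462 in 2D. Over the tested genes, correlations were 0.968 to 0.981 within a group and 0.886 to 0.920 between groups. Of 8 markers of osteoblasts and mesenchyme, 3 reached 1 FPKM in at least 3 libraries (COL1A1, SPARC and VIM), whereas SP7, ALPL and BGLAP stayed under 1 FPKM. COL1A1 was higher and VIM lower in 3D, and the summed level of the list was 385.5 to 407.4 FPKM in 3D and 585.1 to 803 in 2D. Most of that sum was VIM, with means of 294.5 FPKM in 3D and 598.1 in 2D. RUNX2 and COL1A2 had higher means in 3D (2.19 and 1.24 FPKM against 0.648 and 0.217), with groups that overlapped, and were not tested. Of 5 blood markers PTPRC and SPI1 were near 0, and the sum of 54.3 to 59.0 FPKM in 3D and 48.5 to 66.2 in 2D came mostly from LAPTM5 and CD68. These moved in opposite directions. LAPTM5 was higher in 3D, at 51.6 ± 1.87 against 32.8 ± 3.03 FPKM (log2 change 0.64, limma adjusted p = 0.00191), and CD68 lower, at 3.42 ± 0.930 against 19.1 ± 2.73 (SD, n = 3 each, log2 change -2.20, limma adjusted p = 0.000313). HBB stood at 0.779, 1.02 and 2.43 FPKM in 3D and 7.60, 5.72 and 0.905 in 2D and did not pass. The part of other cells in the results above was not tested. Summed endothelial markers stayed under 0.3 FPKM, adipocyte markers under 1.5 and epithelial markers under 1.7, with CDH5, ADIPOQ, KRT5 and KRT14 at 0 in every library.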

How the data were processed

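Poly(A)-enriched RNA, extracted with TRIzol per the labels' protocols, was sequenced in 6 libraries. The authors deposited 1 table of FPKM values per gene and library. The submitters' processing notes name GRCh38 as the build, and as tools edgeR, StringTie, HISAT2, fastp and FastQC, giving neither roles nor versions. Annotation, strandedness and the handling of shared reads were not given in the sources used here.

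FPKM values were transformed as log2(FPKM + 1), which understates changes of low genes. Genes with at least 1 FPKM in at least 3 libraries (12843) were compared with limma 3.58.1 (trend and robust, statmod 1.5.0, R 4.3.3), all 6 libraries, no covariates, 2-sided, at a Benjamini-Hochberg adjusted p of 0.05. The test was also run on simulated data, and the outcome is not given here. Intervals are at 95%.

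Reads were worked out from the deposited FPKM, which equals reads times a library factor divided by gene length. For all 33243 genes above 0 the GENCODE 29 exon length (11450 genes), or else the shortest length up to 500000 bases, gave whole reads within 0.01 in every library. These reads made up 99.64 to 99.70% of the totals the factors imply. No replicates were merged, since counting noise did not account for their differences (chi-square over its degrees of freedom 12.9 to 28.7).

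Alternatives were a pseudocount of 0.1, no filter, a minimum of 5 FPKM, median-ratio scaling, voom on reads, a replicate block and leaving out each library. A voom fit with a filter on reads was added after the data were seen. Members and lists were chosen with earlier results of these data known. Of the other genes, the text names by rule the 4 with the smallest adjusted p and the 2 with the highest mean FPKM in each list. The rule also takes in HMOX1, GCLM, TXNRD1 and SRXN1, and the 3 nearest profiles to NFE2L2 and NQO1. From the lists, BTRC, PGAM5, MAFG, GCLC, SLC7A11, TKT and BLVRB were named in addition, after their values were seen. Symbols came from a name table, positions from GENCODE 29 and windows from RefSeq. TRIM16L matched 2 IDs and was left out, and GSTT1 was not analysed here.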

Additional observations from a re-analysis of the deposited data

How the results depend on the processing

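Under the alternatives KEAP1 and NQO1 kept their direction and passed in each one run, with log2 changes of 0.64 to 0.90 and 0.27 to 0.47. MGST1 kept its direction but did not pass with median-ratio scaling (0.15) or in some fits with a library left out (0.27 to 0.35). BACH1 and OSGIN1 kept their direction and did not pass in any alternative. NFE2L2 had a log2 difference of 0.07, which was 0.21 with a pseudocount of 0.1 and 0.26 with voom on genes filtered by reads. A pseudocount of 1 compresses values under 1 FPKM. The difference of NFE2L2 was 0.02 with median-ratio scaling and 0.03 to 0.09 with a library left out. With no filter NFE2L2 did not pass (limma adjusted p = 0.487). Several values near 0 changed sign, as did MAFG, which was at -0.32 and spread widely within 2D. With median-ratio scaling SOD1 was at -0.15, SOD2 at -0.04 and PRDX1 at -0.14. With a library left out SOD1 ranged from -0.087 to 0.15, CAT from -0.15 to 0.089, GSTP1 from -0.11 to 0.053, PRDX1 from -0.03 to 0.12 and MAFG from -0.91 to 0.13. The minimum of 5 FPKM removed OSGIN1 and SOD2, and gave 2134 genes higher and 1319 lower in place of 4272 and 2328, since fewer genes were tested.

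NRF2 targets higher numbered 7 with no filter, 7 with median-ratio scaling and 8 to 9 with a library left out, in place of 11. The background changed as well. With no filter 4458 of the 33243 genes above 0 were higher, in place of 4272 of 12843. With a library left out 3475 to 4065 of the 12843 were. Superoxide and peroxide enzymes lower numbered 5 in place of 3 with median-ratio scaling, and 1 to 5 with a library left out, while those higher numbered 1 to 2. Glutathione transferases higher numbered 0 with no filter, with the minimum of 5 FPKM and with median-ratio scaling, 2 with a pseudocount of 0.1 and with either voom fit, and 0 to 1 with a library left out, in place of 1. Those lower numbered 1 with no filter, 0 with the minimum of 5 FPKM, 4 with median-ratio scaling and 1 to 3 with a library left out, in place of 2. The minimum of 5 FPKM left only GSTO1 of these transferases to be tested, so its counts of 0 do not show calls that were lost on testing. GPX7 did not pass with voom filtered on reads (adjusted p = 0.0502). With median-ratio scaling the median log2 change fell below 0 for the members (-0.15) and for the list on NRF2 control (-0.12). The causes were not tested.

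Same-numbered libraries of the groups did not deviate together throughout (correlations of 0.084, -0.017 and 0.184 over genes, not independent). Pairs with unlike numbers ranged from -0.172 to 0.104. With so few libraries these values cannot settle whether the numbers pair the cultures, and the main fit used no pairing. With the replicate number as a block, KEAP1, NQO1 and MGST1 still passed (limma adjusted p = 0.00723, 0.0112 and 0.0339), PGAM5 and GSTM3 did not (0.066 and 0.0579), PRDX5 and GSTO1 did as lower (0.0219 and 0.0299), 2 superoxide and peroxide enzymes were higher and 5 lower, and 4291 of all tested genes were higher and 2382 lower. Depth limits OSGIN1 most, at 79 to 134 reads per library. The lengths behind the FPKM of NFE2L2 and SOD2 limit any statement on their levels.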
